A study of Mus musculus with 12 samples.

Results

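The comparison described here asks what the loss of the glucocorticoid receptor (GR) in skeletal muscle changed in the gastrocnemius, the large calf muscle, of mice that received excess glucocorticoid. It rests on 2 of the 12 RNA libraries of the study, the gastrocnemius of CORT-treated GR-mKO mice and that of CORT-treated GRfl/fl mice, and on the 13543 of 22273 listed genes that had a value above 0 in all 4 gastrocnemius libraries. Every mouse was a male that carried *Nr3c1*, the GR gene, with exon 3 floxed, on a C57BL/6J background. GRfl/fl mice had no Cre. GR-mKO mice also carried a Cre transgene under the *Acta1* (skeletal actin) promoter, which is active in myofibers, so the other cells of the muscle were not a target of the deletion. From 8 weeks of age the mice drank 1% ethanol in water (vehicle) or 100 µg/mL corticosterone (CORT), the main glucocorticoid of rodents, in the same solution, for 4 weeks. Each library was made from pooled RNA of 3 mice and there was 1 library in each group, so the spread between mice or pools is unknown and no p-value is given.

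GR is a transcription factor that waits in the cytoplasm with chaperones, moves to the nucleus when it binds glucocorticoid, and binds paired half-sites in DNA, the glucocorticoid response elements. In muscle it is known for inducing genes of protein breakdown, such as the ubiquitin ligases atrogin-1 (*Fbxo32*) and MuRF1 (*Trim63*), for slowing protein synthesis, for releasing amino acids to the blood, and for lowering glucose uptake. GR also switches on genes that restrain it, among them *Fkbp5*, whose product lowers the affinity of the receptor for its hormone.

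Levels are given as counts-per-million (CPM) of the library total, and changes as log2 of the GR-mKO level over the GRfl/fl level after 0.5 CPM was added to both. Where a pair of levels follows for each genotype, vehicle comes before CORT, and where a pair is given with no library named, it is the CORT-treated GRfl/fl level and then the CORT-treated GR-mKO level. A gene was called higher or lower at a change of at least 2-fold. Ranges in parentheses after a change are exact 95% intervals of the log2 ratio, computed from the counts with nothing added. They cover counting error only and can lie farther from 0 than the change for genes with few counts. The libraries held 19394572 to 20357253 expected counts, so a floor of 3 counts lay at 0.147 to 0.155 CPM. The same comparison in vehicle-treated mice, which shares no library with that under CORT, is set beside it.

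The deleted gene was lower in GR-mKO muscle with either drink. *Nr3c1* (chromosome 18, 39410545 to 39519421 on GRCm38, minus strand) was at 112.7 CPM in vehicle-treated and 90.4 CPM in CORT-treated GRfl/fl muscle, and at 46.4 and 35.5 CPM in the corresponding GR-mKO muscle. GR-mKO muscle thus held 39.2% of the GRfl/fl level under CORT, a log2 change of -1.34 (-1.48 to -1.22), and the 2 GR-mKO libraries lay below both GRfl/fl libraries. Loss of a single exon leaves the rest of the transcript to be counted, so these values do not measure functional receptor. The mineralocorticoid receptor gene *Nr3c2*, whose product also binds corticosterone, stood at 9.45 CPM in GRfl/fl against 10.2 CPM in GR-mKO muscle under CORT and was not called.

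Under CORT 1315 genes (9.71% of those tested) were called, 596 of them higher (4.40%) and 719 lower (5.31%) in GR-mKO muscle, and the median change of all tested genes was 0.02. The same rule called 1052 genes (7.77%) under vehicle, 622 of them higher (4.59%) and 430 lower (3.18%), with a median of 0.07. Changes under CORT reached 4-fold for 49 higher and 62 lower genes among the 9240 genes that had at least 5 CPM in 1 of the 2 libraries and were not specific to liver. At 8-fold there were 6 higher and 18 lower. The 8 markers of myofibers (*Acta1*, *Ckm*, *Myh4* and others) summed to 102594 CPM in GRfl/fl against 109996 CPM in GR-mKO muscle under CORT, and 0 of them were called. In bulk tissue, fewer cells of a type and less RNA per cell cannot be told apart.

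**Figure D1:**
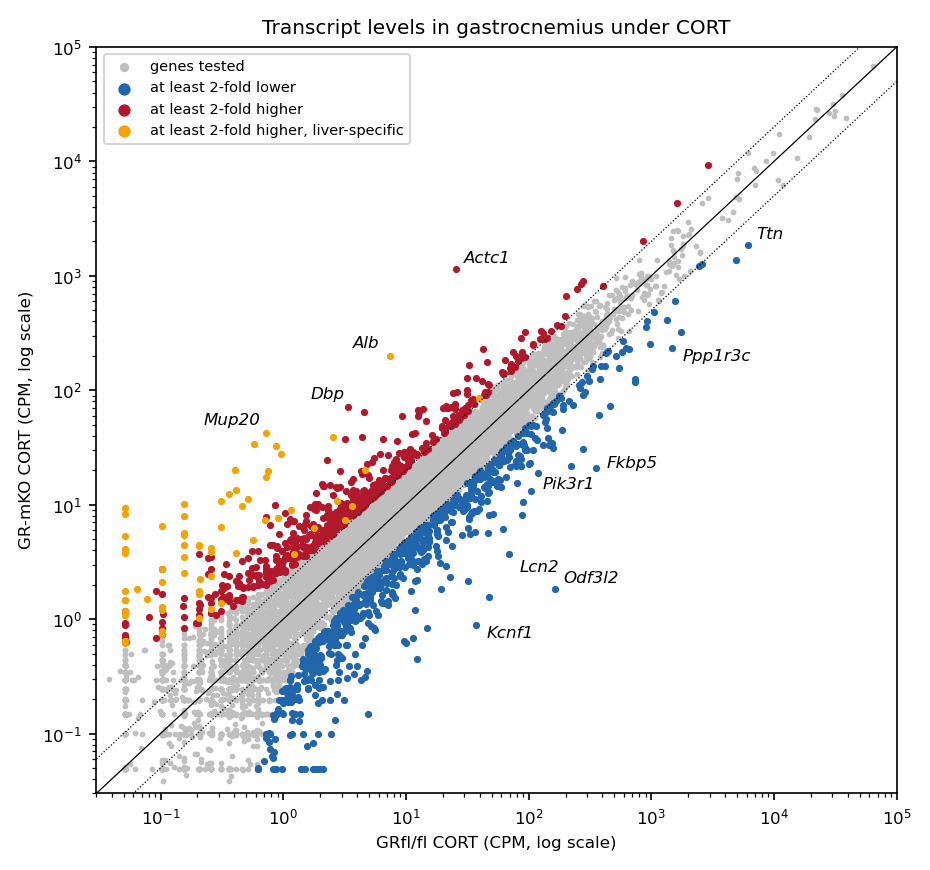
Level of each of the 13543 tested genes in CORT-treated GRfl/fl (x axis) and GR-mKO (y axis) gastrocnemius, in CPM on log scales; the solid line marks equal levels and the dotted lines a 2-fold difference before the 0.5 CPM is added. *Odf3l2*, *Kcnf1* and *Fkbp5* lie far below the line, *Actc1* and *Dbp* far above it, and the liver-specific transcripts that were called lie above it.

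In 2 respects the libraries differed as a whole. Transcripts specific to liver, defined as at least 10 CPM in liver and at least 100 times the level of vehicle-treated GRfl/fl muscle, numbered 500, of which 170 were tested. Of these 68 were higher in GR-mKO muscle under CORT and 0 were lower, and they made up 11.4% of all genes called higher. The median level of such transcripts was 0.00787% of their level in the matching liver library in CORT-treated GRfl/fl muscle and 0.326% in CORT-treated GR-mKO muscle, with 0.00496% and 0.0988% in the vehicle-treated pair. Low levels in vehicle-treated GRfl/fl muscle were part of the choice of these transcripts, so the rise within the vehicle-treated pair is partly built in. Transcript length moved with the change as well. Among genes of at least 1 CPM on average, the shortest of 10 equal classes (204 to 1199 bases) had a median change of 0.517 under CORT, with 12.2% of its genes higher and 2.4% lower, and the longest class (6488 bases and above) a median of -0.385, with 1.29% higher and 12.6% lower. Under vehicle the medians were 0.408 and -0.285. The part of length in the changes of single genes was not tested, but changes were also computed after the median along length was taken off, and those values are given where the call of a named gene was lost.

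**Figure D2:**
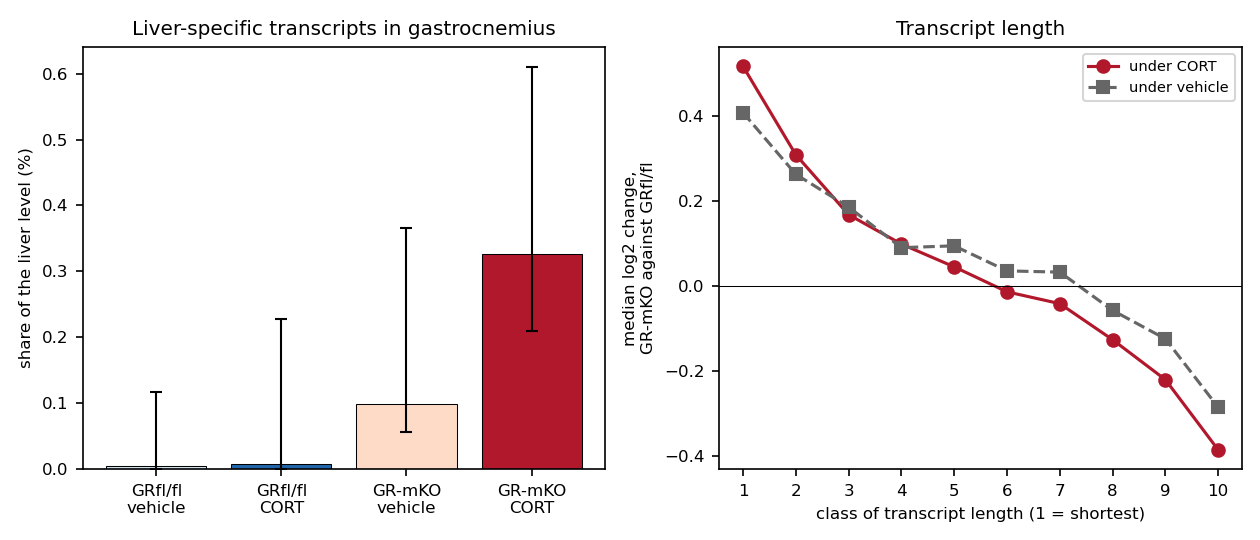
Left, level of liver-specific transcripts in each gastrocnemius library as a share of their level in the liver library of the same genotype and treatment (bars: medians; error bars: 25th to 75th percentile over transcripts); the median rises from 0.00787% to 0.326% between the CORT-treated libraries. Right, median log2 change of GR-mKO against GRfl/fl in 10 classes of transcript length, falling from 0.517 to -0.385 under CORT and from 0.408 to -0.285 under vehicle.

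The largest fall belonged to *Odf3l2* (chromosome 10, 79639526 to 79645738), a member of the outer dense fiber gene family. It was at 44.5 CPM in vehicle-treated and 163 CPM in CORT-treated GRfl/fl muscle, and at 1.89 and 1.82 CPM in GR-mKO muscle. Under CORT the GR-mKO level was 89.6-fold lower, a change of -6.14 (-6.99 to -6.02), and it was lower without added CORT too, at -4.23 (-5.07 to -4.09). *Kcnf1* (chromosome 12, 17172100 to 17176888), which encodes a modulatory subunit of voltage-gated potassium channels, was at 11.4 and 37.3 CPM in GRfl/fl and at 2.95 and 0.886 CPM in GR-mKO muscle, a change under CORT of -4.77 (-6.16 to -4.73). For both genes the GR-mKO libraries were low and the CORT-treated GRfl/fl library was the highest.

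Transporters stood among the remaining large falls. *Slc2a3*, the glucose transporter GLUT3, was at 32.03 CPM in CORT-treated GRfl/fl muscle against 2.16 CPM in GR-mKO muscle, a change of -3.61 (-4.36 to -3.45). The peptide transporter genes *Slc15a2* and *Slc15a5* were at 14.8 against 0.836 CPM and 12.3 against 0.446 CPM, changes of -3.52 and -3.76. *Prima1*, which anchors acetylcholinesterase in membranes, stood at 11.4 and 0.687 CPM, a change of -3.32 (-4.95 to -3.27). *Tmem52*, which encodes a membrane protein, stood at 88.35 and 8.11 CPM (-3.37) and *Pnisr*, which encodes a nuclear speckle protein, at 61.8 and 6.14 CPM (-3.23). Of the 11 largest falls given here, 8 were also called lower under vehicle and 3, *Lcn2*, *Slc15a2* and *Pik3r1*, were not. The CORT-treated GRfl/fl library held the highest of the 4 levels in all 11, which the choice of the largest falls favors.

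**Figure D3:**
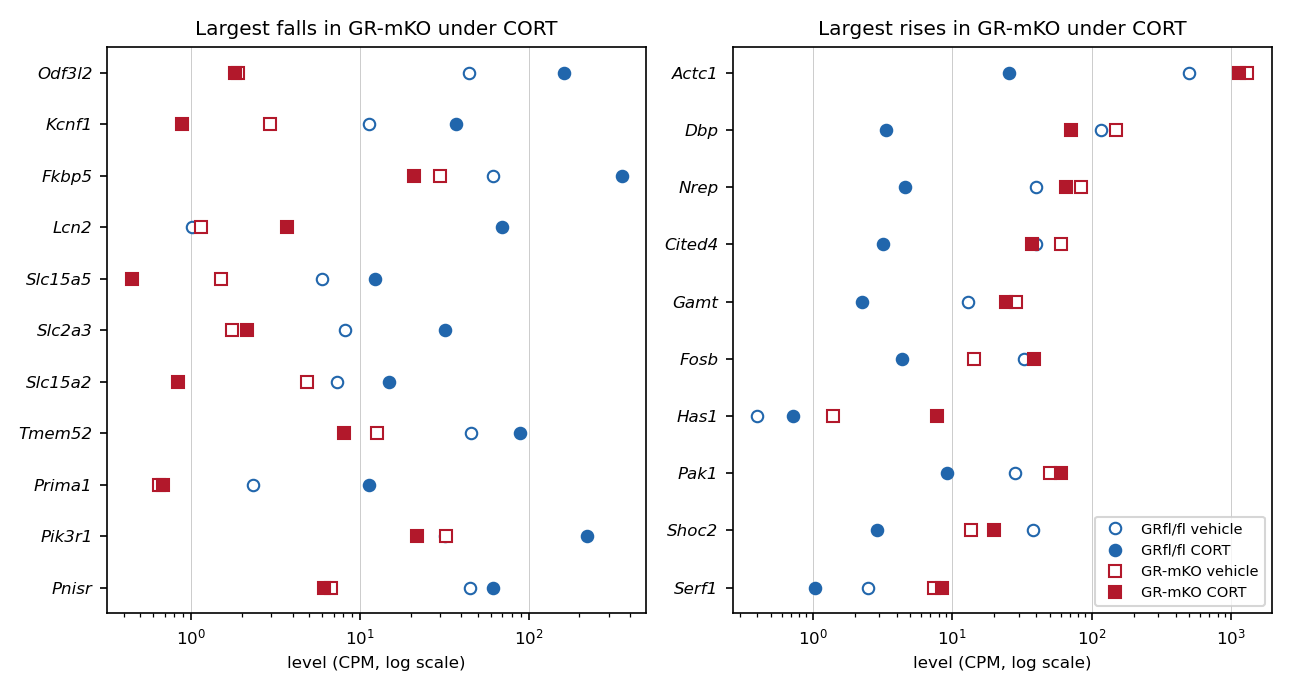
Level in CPM (log scale) of the 11 genes with the largest falls (left) and the 10 with the largest rises (right) that are given here, in GR-mKO against GRfl/fl muscle under CORT, liver-specific transcripts left out; circles are GRfl/fl and squares GR-mKO libraries, open for vehicle and filled for CORT. The CORT-treated GRfl/fl library is the highest of the 4 for all 11 falls and the lowest for 9 of the 10 rises, *Has1* being the exception.

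Genes that glucocorticoids are known to induce ranged from far lower without muscle GR to little different, and 1 was called higher. Of 30 listed, all tested, 10 were lower and 1 was higher, with a median of -0.22, where 5.31% of all tested genes were lower and the median of all was 0.02. *Fkbp5* (chromosome 17, 28399094 to 28517527) stood at 61.9 and 355 CPM in GRfl/fl and at 29.98 and 20.8 CPM in GR-mKO muscle, and was 17.0-fold lower under CORT, a change of -4.06 (-4.24 to -3.95). *Lcn2* (chromosome 2, 32384633 to 32388252), encoding the secreted iron-siderophore carrier lipocalin 2, was at 1.01 CPM under vehicle and 69.8 CPM under CORT in GRfl/fl muscle, and at 1.14 and 3.74 CPM in GR-mKO muscle, a change of -4.05 (-4.58 to -3.89). It also belonged to the transcripts specific to fat, defined as at least 10 CPM in gonadal fat and at least 20 times the level of vehicle-treated GRfl/fl muscle. *Pik3r1* (chromosome 13, 101680563 to 101768217), which encodes the p85α regulatory subunit of PI 3-kinase, was at 31.9 and 223 CPM in GRfl/fl and at 32.5 and 21.95 CPM in GR-mKO muscle, a change of -3.32 (-3.49 to -3.20).

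Under vehicle the levels of *Lcn2* and *Pik3r1* were close between the genotypes, with changes of 0.12 (-0.74 to 1.13) and 0.02 (-0.13 to 0.19), so that the CORT-treated GRfl/fl library stood alone at the high level. The cell cycle inhibitor *Cdkn1a* had the same form, with 37.3 and 188 CPM in GRfl/fl against 37.5 and 44.6 CPM in GR-mKO muscle and a change under CORT of -2.07 (-2.18 to -1.97). *Arrdc2*, an arrestin domain gene, had another form, at 147 and 51.5 CPM in GRfl/fl and 7.95 and 8.21 CPM in GR-mKO muscle. Its difference under vehicle was -4.13 and that under CORT -2.58 (-2.89 to -2.41). *Zbtb16*, which encodes the transcription factor PLZF, was lower by 2.33 and *Hif3a*, which encodes a hypoxia-inducible factor subunit, by 2.17, and *Lpin1*, which encodes a phosphatidate phosphatase, stood at 500.4 and 518 CPM in GRfl/fl against 211 and 200.1 CPM in GR-mKO muscle, a change of -1.37 (-1.42 to -1.32).

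Several textbook GR targets were not called. *Pdk4*, which encodes the kinase that shuts off pyruvate dehydrogenase, stood at 967 CPM in GRfl/fl against 969.9 CPM in GR-mKO muscle under CORT, up from 406 and 214 CPM under vehicle, and its change was 0.00 (-0.02 to 0.03). *Angptl4*, whose product inhibits lipoprotein lipase, was at 17.3 and 16.1 CPM, a change of -0.10 (-0.33 to 0.12). *Tsc22d3*, encoding the leucine zipper protein GILZ, changed by 0.21 (0.14 to 0.28), *Klf9* by -0.35 (-0.43 to -0.28), *Klf15* by -0.22 (-0.38 to -0.07) and *Per1* by -0.18 (-0.35 to -0.02). The only member called higher was *Sgk1* (chromosome 10, 21882184 to 21999903), which encodes a kinase of ion transport. It was lowest in CORT-treated GRfl/fl muscle, at 75.2 CPM, and was at 260 CPM in vehicle-treated GRfl/fl and 211 and 217 CPM in GR-mKO muscle, a change under CORT of 1.52 (1.44 to 1.62).

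The DNA before the start of these genes was searched for the core of a glucocorticoid response element, the half-site GNACA (N is any base) followed after 3 bases by its reverse complement, which reads the same on both strands. RefSeq promoters of 300 bases on GRCm38.p6, from 250 before to 50 after the start, could be matched by symbol for 10623 of the 13543 tested genes. The core was present in 0.475% of all 32851 promoters and in 0.442% of those of tested genes. It was present in 7 of the 546 genes called lower that had a promoter (1.28%) and in 2 of the 467 called higher (0.428%). *Trim63* was among the lower genes that held it, and so was *Car14*, encoding a membrane carbonic anhydrase, which was named after the values were seen. *Car14* stood at 21.4 and 104.4 CPM in GRfl/fl and at 14.8 and 13.1 CPM in GR-mKO muscle, a change under CORT of -2.95 (-3.18 to -2.81). The stricter palindrome of the full half-site AGAACA, again 3 bases apart, was present in 3 of all promoters, and *Sgk1*, called higher, was the only tested gene among them. *Fkbp5*, *Lcn2* and *Pik3r1* had no core in this window, which says nothing about sites elsewhere. Stretches of the promoters follow as examples of a core before genes of either direction, with the core in capitals. It begins 208 bases before the start in *Trim63* (chr4:134314870-134314999, plus strand), 225 bases before it in *Car14* (chr3:95904823-95904935, minus strand) and 188 bases before 1 of 6 annotated starts of *Sgk1* (chr10:21993640-21993789, plus strand).
Trim63: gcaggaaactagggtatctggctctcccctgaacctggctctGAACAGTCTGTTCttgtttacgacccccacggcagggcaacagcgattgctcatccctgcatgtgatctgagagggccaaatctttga
Car14: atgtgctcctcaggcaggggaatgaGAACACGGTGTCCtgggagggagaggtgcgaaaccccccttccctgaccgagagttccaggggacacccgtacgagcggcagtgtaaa
Sgk1: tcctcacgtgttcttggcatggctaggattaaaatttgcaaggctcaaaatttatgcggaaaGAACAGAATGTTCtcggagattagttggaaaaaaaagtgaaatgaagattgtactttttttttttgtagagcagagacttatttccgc

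Among genes of protein breakdown, calls fell on regulators and ligases, and no subunit of the proteasome and no gene of autophagy was called. Among 26 tested FoxO factors and ubiquitin ligases, 4 were lower and 1 was higher, with a median of -0.08, beside 5.31% lower and 4.40% higher among all tested genes. *Fbxo32* (chromosome 15, 58175879 to 58214932) stood at 287 and 913 CPM in GRfl/fl muscle without and with CORT, and at 316 and 359 CPM in GR-mKO muscle, a change under CORT of -1.35 (-1.39 to -1.31). *Trim63* (chromosome 4, 134315120 to 134329629), the gene whose promoter is printed above, stood at 244 and 425 CPM in GRfl/fl and at 163 and 211 CPM in GR-mKO muscle, a change of -1.01 (-1.06 to -0.95) whose interval spans the threshold. *Foxo1*, which encodes a transcription factor that drives both ligases, was at 147.5 CPM in GRfl/fl against 33.4 CPM in GR-mKO muscle, a change of -2.12 (-2.26 to -2.02). *Foxo3* was at 78.3 and 32.4 CPM, a change of -1.26 (-1.41 to -1.14) that became -0.97 with the length trend taken off. *Foxo6*, another member of the family, was higher, at 1.65 against 9.64 CPM. For 31 proteasome subunits the median was 0.24, and -0.04 with the length trend taken off, and for 24 autophagy and lysosomal genes it was -0.02, with *Bnip3* at -0.36 (-0.42 to -0.30) and *Gabarapl1* at 0.43 (0.33 to 0.54).

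**Figure D4:**
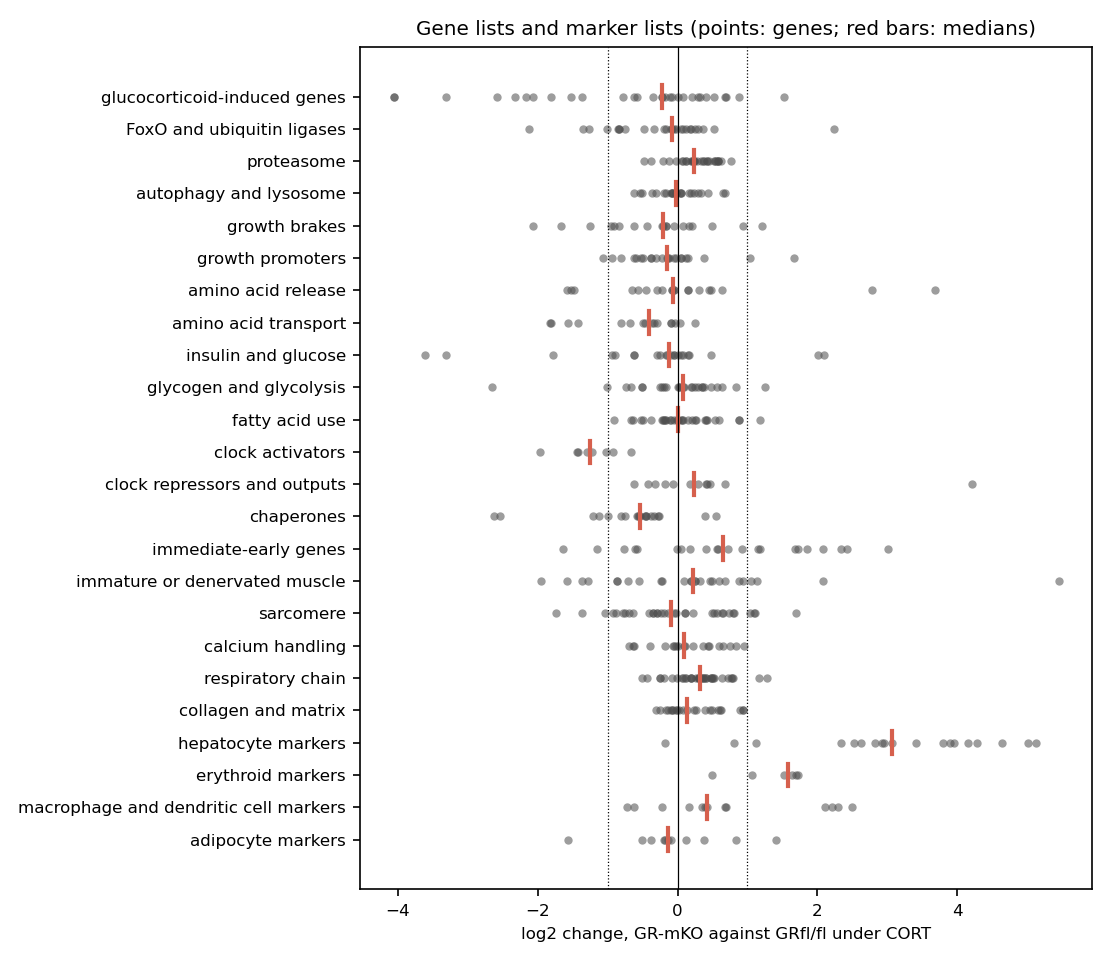
Log2 change of GR-mKO against GRfl/fl gastrocnemius under CORT for each tested member of 20 gene lists and 4 lists of cell type markers; each point is a gene, red bars are medians and dotted lines mark a 2-fold change. Clock activators lie wholly below 0, hepatocyte and erythroid markers have medians of 3.06 and 1.58, and proteasome, autophagy, calcium handling and collagen genes all lie between the dotted lines.

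Of the carriers that move amino acids across the fiber membrane 16 were tested, of which 4 were lower and 0 were higher, with a median of -0.41, where 5.31% of all tested genes were lower. Of the 16 changes 2 were above 0. *Slc38a2*, the carrier SNAT2 for small neutral amino acids, was at 233 and 546 CPM in GRfl/fl and at 119.7 and 155 CPM in GR-mKO muscle, a change under CORT of -1.81 (-1.87 to -1.76). *Slc38a3*, a glutamine carrier, changed by -1.83 (-1.98 to -1.71), *Slc38a4* by -1.57 (-1.68 to -1.47) and the cationic amino acid carrier *Slc7a2* by -1.42 (-1.56 to -1.30). *Slc7a5* and *Slc3a2*, which encode the chains of the large neutral amino acid exchanger, were not called, at 0.04 (-0.48 to 0.56) and -0.04 (-0.20 to 0.12).

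Among 20 tested enzymes of amino acid release, 3 were lower and 2 higher, beside 4.40% higher and 5.31% lower among all tested genes. Glutamine synthetase, *Glul* (chromosome 1, 153899944 to 153909723), was at 464 and 662.5 CPM in GRfl/fl and at 330.3 and 229 CPM in GR-mKO muscle, a change under CORT of -1.53 (-1.58 to -1.48). *Oat*, which encodes ornithine aminotransferase, stood at 289 and 96.5 CPM under CORT (-1.58), and *Prodh*, which encodes the first enzyme of proline breakdown, at 11.5 and 3.80 CPM (-1.48). The higher pair, *Tat* and *Hpd*, encode enzymes of tyrosine breakdown and both belong to the liver-specific transcripts. After the median share of the liver level had been subtracted from each library neither was called, at -0.22 and 0.74. *Gpt2*, the mitochondrial alanine aminotransferase, was not called, at 258 CPM in GRfl/fl against 189 CPM in GR-mKO muscle, a change of -0.45 (-0.51 to -0.39).

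Genes of insulin signaling and glucose handling gave 3 lower and 2 higher of 22 tested, with a median of -0.13, beside 4.40% higher and 5.31% lower among all tested genes. The lower ones were *Pik3r1* and *Slc2a3*, given above, and *Tbc1d1*, which encodes a regulator of glucose transporter traffic, at 86.97 against 25.02 CPM (-1.78, -1.94 to -1.65). *Grb14*, which encodes an inhibitor of the insulin receptor, was higher, at 6.15 against 27.8 CPM (2.09, 1.89 to 2.48), as was the small GTPase gene *Rrad* at 3.58 against 15.9 CPM (2.01). The main glucose transporter of muscle, *Slc2a4*, was at 564 and 527.4 CPM, and hexokinase 2, *Hk2*, at 195 and 219 CPM, neither called. Among 27 genes of glycogen and glycolysis 2 were lower and 1 was higher. *Ppp1r3c* (chromosome 19, 36731731 to 36736653), which encodes a subunit that targets protein phosphatase 1 to glycogen, stood at 517.4 and 1472 CPM in GRfl/fl and at 131 and 233 CPM in GR-mKO muscle, a change under CORT of -2.66 (-2.70 to -2.62). *Gbe1*, the glycogen branching enzyme, was at 94.25 and 46.7 CPM (-1.004), and its call was lost with 1 CPM added in place of 0.5. Phosphoglycerate mutase 2, *Pgam2*, was higher by 1.25 (1.23 to 1.28), and by 0.71 with the length trend taken off. Of 31 genes of fatty acid use only *Ucp3*, which encodes a mitochondrial uncoupling protein, was called, at 85.0 against 193 CPM (1.18).

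Brakes and promoters of muscle growth were called in both directions. Of 19 brakes 3 were lower and 1 was higher, beside 4.40% higher and 5.31% lower among all tested genes. The lower ones were *Cdkn1a*, *Sesn1*, which encodes an inhibitor of mTORC1 (-1.26), and *Tsc1*, which encodes part of the TSC complex (-1.67). *Cdkn1c*, another cell cycle inhibitor, was higher, at 14.7 against 34.6 CPM (1.21). Myostatin, *Mstn* (chromosome 1, 53061640 to 53068079), was at 82.1 and 105.4 CPM in GRfl/fl and at 42.3 and 58.7 CPM in GR-mKO muscle. Its change under CORT was -0.84 (-0.95 to -0.74) and it was not called. Of 23 promoters 2 were higher and 1 was lower. *Igfbp5*, which encodes an insulin-like growth factor binding protein, was at 268 CPM in GRfl/fl against 850 CPM in GR-mKO muscle (1.66, 1.62 to 1.71), and *Fst*, which encodes the myostatin antagonist follistatin, at 6.85 and 3.03 CPM (-1.06), a call that was lost with 1 CPM added. *Amd1* (chromosome 10, 40287458 to 40302186), which encodes the decarboxylase that supplies polyamine synthesis, was at 2099 and 401 CPM in GRfl/fl and at 982 and 819.9 CPM in GR-mKO muscle. It was higher under CORT by 1.03 (0.99 to 1.07) and the only one of 12 polyamine genes called. With median-of-ratios factors its change was 0.998 and no longer reached 2-fold.

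Most calls among clock genes fell on the activators. Of 8 activators and late-phase genes 6 were lower, 0 were higher and all 8 lay below 0, with a median of -1.26, where 5.31% of all tested genes were lower. *Arntl*, encoding BMAL1, the core activator of the clock, was at 10.4 and 33.99 CPM in GRfl/fl and at 6.21 and 12.2 CPM in GR-mKO muscle, a change under CORT of -1.44 (-1.70 to -1.27). *Nfil3*, whose product represses the same sites that DBP activates, was at 131 against 33.4 CPM under CORT (-1.96, -2.10 to -1.85). *Npas2*, a partner of BMAL1, changed by -1.43. Calls of *Clock* and *Rora* were lost with the length trend taken off, where they changed by -0.87 and -0.58. Of 12 repressors and outputs 1 was called, *Dbp* (chromosome 7, 45705088 to 45710203), which was at 116.2 and 3.37 CPM in GRfl/fl and at 149.5 and 71.3 CPM in GR-mKO muscle, a change of 4.21 (4.05 to 4.79). The CORT-treated GRfl/fl library was the low one. *Nr1d1*, *Per2* and *Hlf* changed by 0.29, -0.07 and 0.67.

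Changes of chaperone genes were mostly below 0. Of 20 tested 4 were called lower, 0 were called higher and 18 were below 0, with a median of -0.54, where 5.31% of all tested genes were lower. *Hspa1b* stood at 29.5 and 733 CPM in GRfl/fl and at 13.7 and 119 CPM in GR-mKO muscle, a change under CORT of -2.62 (-2.69 to -2.56), and its near-identical neighbor *Hspa1a*, with which reads may be shared, changed by -2.53. Each genotype was higher with CORT than without it, and GR-mKO muscle was the lower with either drink. *Hsp90aa1*, which encodes a chaperone that holds GR in its hormone-binding form, was at 256 against 111 CPM (-1.20, -1.28 to -1.13), and the muscle chaperone *Hspb7* at 1052 against 481 CPM (-1.13). *Hspa8* and *Dnajb1* changed by -0.47 and -0.58.

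Immediate-early genes, which are transcribed within minutes of a stimulus, included the largest number of higher calls of the 24 lists. Of 22 tested 9 were higher and 2 lower, with a median of 0.65, where 4.40% of all tested genes were higher. *Egr1* was at 114.3 and 42.7 CPM in GRfl/fl and at 148 and 230.4 CPM in GR-mKO muscle, a change under CORT of 2.42 (2.32 to 2.54). *Junb* changed by 2.33, *Egr2* by 2.09, *Ier2* by 1.85, *Fos* by 1.73 and *Zfp36* by 1.68, and *Fosb* was at 4.41 against 38.95 CPM (3.01, 2.83 to 3.49). *Egr3* (1.18) and *Klf2* (1.15) were the other higher members, and the call of *Klf2* was lost with the length trend taken off (0.96). *Atf3*, which encodes a stress-induced repressor, was lower, at 116.4 against 36.9 CPM (-1.64), as was *Ier5* (-1.15).

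*Actc1* (chromosome 2, 114047282 to 114053548), the actin of heart and of immature skeletal muscle, had the largest rise. It was at 500.6 and 25.6 CPM in GRfl/fl muscle without and with CORT, and at 1312 and 1142 CPM in GR-mKO muscle, and thus stood 44.5-fold higher in GR-mKO muscle under CORT, a change of 5.45 (5.35 to 5.61). Under vehicle the difference was 1.39 (1.36 to 1.42). The CORT-treated GRfl/fl library was the only one with a low level. *Acta1*, the actin of adult fibers, changed by 0.10 (0.10 to 0.11) at 35757 and 38416 CPM. The window before the start of *Actc1* holds a CArG box, the element bound by serum response factor. The box was present in 1.63% of all promoters and 1.62% of those of tested genes. It was present in 17 of 467 promoters of genes called higher (3.64%) and in 7 of 546 of genes called lower (1.28%). The element CACGTG was searched as well, and was present in 11.3% of promoters of tested genes, 11.3% of those called higher and 9.16% of those called lower. *Egr2*, *Zfp36* and *Myl3* were among the higher genes that held a CArG box. The CArG box is shown in capitals in the *Actc1* promoter (chr2:114052876-114052997, minus strand), where it begins 47 bases before the RefSeq start. These bases lie inside the gene span given above, which comes from GENCODE and reaches beyond that start.
Actc1: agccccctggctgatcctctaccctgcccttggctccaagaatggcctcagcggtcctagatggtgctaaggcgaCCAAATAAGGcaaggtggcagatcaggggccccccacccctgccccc

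Other genes of immature or denervated muscle went in both directions. Of 26 tested 4 were higher and 4 lower, with a median of 0.22, beside 4.40% higher and 5.31% lower among all tested genes. *Myl4*, the embryonic myosin light chain, was at 1.81 against 9.28 CPM (2.08, 1.84 to 2.93), and *Chrna1*, which encodes the α subunit of the acetylcholine receptor, at 27.4 against 60.95 CPM (1.14). *Chrng*, the fetal γ subunit, was called at 0.0515 against 0.639 CPM, the former below the floor, and its call was lost with 1 CPM added. The stretch-responsive genes *Ankrd1* (-1.95), *Ankrd2* (-1.36) and *Csrp3* (-1.28), and *Dach2* (-1.57), which encodes a transcriptional repressor, were lower. *Myog* and *Runx1*, which rise after denervation, were not called, at -0.24 (-0.52 to 0.02) and 0.46 (-0.06 to 1.21).

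The remaining large rises did not share a list. *Nrep*, which encodes a neuronal regeneration protein, was at 4.565 CPM in GRfl/fl against 65.2 CPM in GR-mKO muscle under CORT (3.70, 3.52 to 4.15), and *Cited4*, a transcriptional coactivator gene, at 3.20 and 37.2 CPM (3.35). *Gamt*, whose product completes creatine synthesis, stood at 2.275 and 24.4 CPM (3.17). *Pak1*, which encodes a kinase of actin remodeling and glucose uptake, was at 9.26 and 60.02 CPM (2.63), *Has1*, a hyaluronan synthase gene, at 0.721 and 7.82 CPM (2.77), and *Serf1* at 1.04 and 8.47 CPM (2.54). *Shoc2*, which encodes a scaffold of the MAP kinase pathway, was higher by 2.58. Of the 10 largest rises given here 5 were also higher under vehicle, 2 were lower and 3 were not called.

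Genes of the contractile machinery were called in both directions. Of 34 sarcomere genes 4 were higher and 3 lower, with a median of -0.095, beside 4.40% higher and 5.31% lower among all tested genes. With the length trend taken off 2 were higher and 3 lower, and several of these calls moved with transcript length. The higher ones included *Myl1*, a fast myosin light chain gene with an 803-base transcript, at 2884 against 9363 CPM (1.70, and 1.14 with the length trend taken off). *Ttn*, encoding titin, whose retained transcript has 81843 bases, was lower at 6137 against 1849 CPM (-1.73, and -1.28 with the trend taken off). The calls of *Myl3*, *Tpm3* and *Neb* were lost under that setting, at 0.55, 0.73 and -0.59, while *Mylk2*, the myosin light chain kinase of skeletal muscle, changed by -1.37 with it in and -1.39 with it off. *Myh4*, the myosin heavy chain of type IIb fibers, was not called under CORT, at -0.30, nor were *Myh1*, *Myh2* and *Myh7*, at -0.64, -0.41 and -0.20. Of 20 calcium-handling genes and 23 genes of collagen and matrix 0 were called. Of 38 respiratory chain subunits 2 were called, *Cox7a1* and *Cox8b*, and their changes of 1.28 and 1.17 became 0.65 and 0.54 with the length trend taken off.

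Markers of other cells moved with the comparison. Of 19 tested hepatocyte markers 17 were higher under CORT and 0 lower, with a median of 3.06, where 4.40% of all tested genes were higher, and their summed level was 166 CPM in GRfl/fl against 611 CPM in GR-mKO muscle. Under vehicle 16 of the 19 were higher. *Alb*, encoding albumin, was at 4.13 and 7.47 CPM in GRfl/fl and at 56.4 and 198 CPM in GR-mKO muscle, a change under CORT of 4.64 (4.49 to 4.98). *Mup20*, *Serpina1c* and *Serpina1b* were with it among the largest rises of liver-specific transcripts, from 5.12 to 4.52, and members of the *Mup* and *Serpina1* families share reads with close relatives. *Cyp2e1*, at 103.4 and 91.1 CPM, was not called. After the median share of the liver level had been taken off each gene, *Alb* changed by -1.50. The 10 largest rises given above were chosen with liver-specific transcripts left out, so none of them could be liver-specific. Whether liver RNA entered the muscle samples, or muscle made these transcripts, was not tested.

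Of 6 tested erythroid markers 5 were higher and 0 lower, with a median of 1.58, where 4.40% of all tested genes were higher. With the length trend taken off 3 were higher and the median was 0.97, and the calls of *Hbb-bt* and *Alas2* were lost at 0.924 and 0.919. *Hba-a1* was at 213.5 and 200.1 CPM in GRfl/fl and at 338 and 665 CPM in GR-mKO muscle (1.73, 1.68 to 1.78), with reads that may be shared with *Hba-a2*. Among 13 markers of macrophages and dendritic cells the 4 higher ones under CORT were the MHC class II genes *H2-Ab1*, *H2-Aa*, *H2-Eb1* and the invariant chain *Cd74*. The others, such as *Lyz2* (0.68), *C1qa* (0.39) and *Csf1r* (-0.72), were not called, and the median was 0.42. Under vehicle 11 of the 13 were higher, with a median of 1.45, where 4.59% of all tested genes were higher. *Cd74* was at 104.8 and 4.85 CPM in GRfl/fl and at 241 and 22.5 CPM in GR-mKO muscle, so both genotypes were lower with CORT. *Ighm*, an immunoglobulin heavy chain gene, was higher at 12.6 against 59.5 CPM (2.19), and 3 of 9 lymphocyte markers could be tested. Of 11 adipocyte markers 1 was lower and 1 higher. *Lep*, encoding leptin, was at 2.01 and 93.65 CPM in GRfl/fl and at 3.35 and 31.4 CPM in GR-mKO muscle (-1.56, -1.71 to -1.45), while *Adipoq* and *Plin1* changed by -0.38 and -0.51. *Car3*, a carbonic anhydrase gene that slow muscle also expresses, was higher by 1.41. Fat-specific transcripts had 5 higher and 20 lower of 232 tested, with a median of -0.24, beside 4.40% higher and 5.31% lower among all tested genes. *Lcn2* and *Lep* were among the lower ones. Markers of endothelium (9), fibroblasts (8), tenocytes (6) and Schwann cells (6) held no call under CORT. Under vehicle 3 fibroblast and 3 tenocyte markers were higher, and 1 endothelial and 1 Schwann cell marker were lower. In each of the smooth muscle (5) and satellite cell (5) lists 1 gene was higher under CORT, *Smtn* (1.65) and *Chodl* (1.03). *Chodl* fell just short of the call with median-of-ratios factors (0.995), with 1 CPM added (0.967) and with the length trend taken off (0.955). The part of these cells in the changes of other genes was not tested.

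Set beside the comparison under vehicle, the calls under CORT overlapped in part. Of the 719 genes lower under CORT 160 were also lower under vehicle, which is 22.3% of the former and 37.2% of the 430 lower under vehicle, and 11 were higher. Of the 596 higher under CORT 138 were also higher under vehicle, 23.2% of the former and 22.2% of the latter, and 12 were lower. Among all tested genes 3.18% were lower and 4.59% higher under vehicle, and 5.31% were lower and 4.40% higher under CORT. The overlaps are descriptions, and transcript length and the liver-specific transcripts moved in the same direction in both comparisons. For the liver-specific transcripts, their choice by low levels in vehicle-treated GRfl/fl muscle favors a rise under vehicle. *Odf3l2*, *Arrdc2*, *Pnisr*, *Ppp1r3c* and *Lpin1* were lower with either drink. *Fbxo32* (0.14), *Cdkn1a* (0.01), *Csrp3* (0.10) and *Ankrd1* (-0.02) differed by little under vehicle and were called lower under CORT. Whether the genotypes differed more with CORT than without it could not be tested with 1 library in each group.

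**Figure D5:**
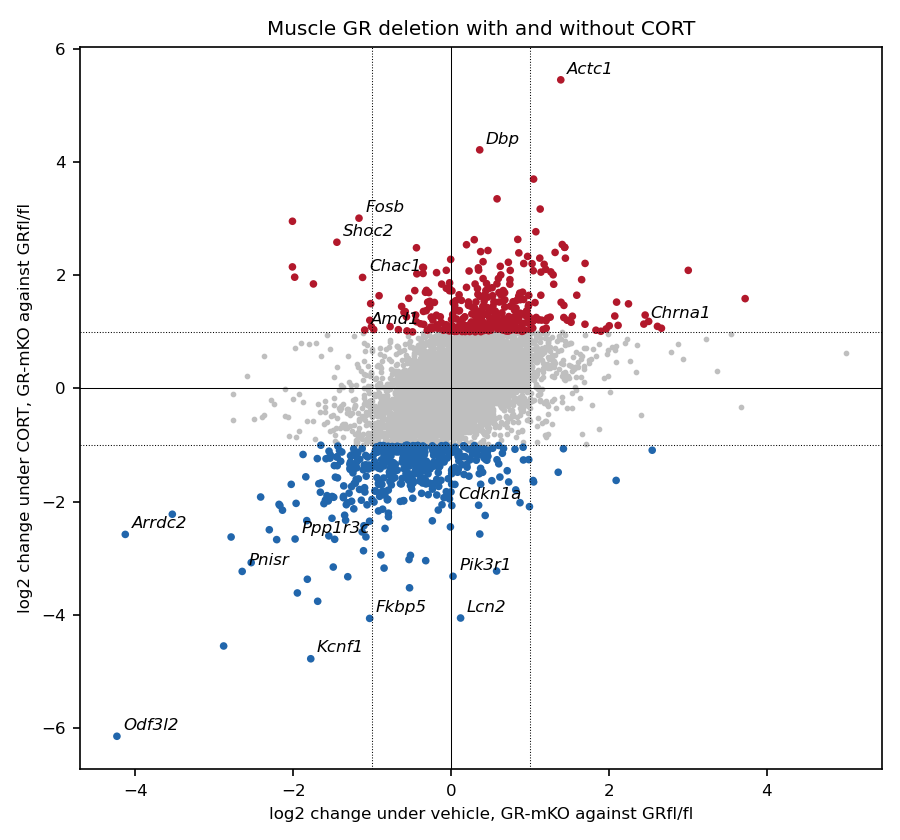
Log2 change of GR-mKO against GRfl/fl gastrocnemius under vehicle (x axis) and under CORT (y axis) for 9240 genes of at least 5 CPM in 1 of the CORT libraries, liver-specific transcripts left out; blue and red mark calls under CORT and dotted lines a 2-fold change. *Odf3l2* and *Pnisr* are low on both axes, *Pik3r1*, *Lcn2* and *Cdkn1a* lie near 0 on the x axis, and *Shoc2* and *Fosb* lie at the upper left.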

How the data were processed

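RNA-seq was performed by the authors on pooled RNA of 3 mice for each of 12 groups (3 tissues, 2 genotypes, 2 treatments), with 1 library in each. The authors sequenced paired reads of 100 bases from RNA that passed limits on purity and integrity, estimated transcript abundance with Salmon 1.2.1 on protein-coding GENCODE transcripts of GRCm38 (mm10), and imported it with tximport in R 3.5.0. The deposited values are expected counts (estimated counts) per gene symbol, scaled for length and not between libraries, with 1 transcript identifier retained for each symbol. Whether values had been summed over the transcripts of a gene was not settled. They were rounded to whole numbers for intervals.

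Here CPM was computed on library totals, 0.5 CPM was added before log2, and genes above 0 in all 4 gastrocnemius libraries were tested. With 1 library in each group, no test was run. Counting intervals were Clopper-Pearson for ratios, with a floor of 3 counts. TMM factors came from edgeR 4.0.16 in R 4.3.3, and the rest from Python 3.11.15 with scipy 1.17.1. The calculation was tested on simulated data. Transcript lengths and gene positions came from GENCODE M21, and promoters from RefSeq.

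Liver- and fat-specific transcripts had at least 10 CPM in liver or gonadal fat and at least 100 or 20 times the level of vehicle-treated GRfl/fl muscle. Named genes were *Nr3c1*, the 12 largest rises and falls of at least 5 CPM outside the liver-specific set, the 5 largest liver-specific rises, called members of 24 gene lists and 13 marker lists, and 19 genes fixed by name, apart from 5 genes that are not reported here. The members and lists were chosen with earlier results of these data known. Alternatives covered scaling, the added CPM, filters, liver transcripts and the call rule, and removal of the length trend was added after seeing the data.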

Additional observations from a re-analysis of the deposited data

Results flagged for a closer look

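Of the named genes, 4 were called in opposite directions in the 2 treatments, and the difference between the treatments was not tested, since each group held 1 library. *Fosb*, an immediate-early gene, changed by 3.01 under CORT and -1.17 under vehicle in GR-mKO against GRfl/fl muscle, at 32.9 and 4.41 CPM in vehicle- and CORT-treated GRfl/fl muscle and 14.4 and 38.95 CPM in GR-mKO muscle. *Shoc2* changed by 2.58 under CORT and -1.45 under vehicle, at 38.05, 2.9, 13.6 and 19.8 CPM in the same order. *Chac1*, which encodes an enzyme of glutathione breakdown, changed by 1.96 and -1.12, at 67.3, 24.1, 30.6 and 95.3 CPM. *Amd1* changed by 1.03 and -1.1, at 2099, 401, 982 and 819.9 CPM. In each of the 4 the vehicle-treated GRfl/fl library was above the CORT-treated one, while *Fosb*, *Shoc2* and *Chac1*, but not *Amd1*, were higher with CORT in GR-mKO muscle. A lone transcript identifier is retained for each symbol, and whether values had been summed over transcripts was not settled. If they had not, a shift between transcripts of a gene cannot be told apart from a change of the gene.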

How the results depend on the processing

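Counts of calls depended on the call rule and on how low values were treated. Under CORT the 1315 calls (596 higher, 719 lower) became 2010 (930 and 1080) with 0.1 CPM added, 761 (342 and 419) when the whole counting interval had to lie beyond 2-fold, and 182 (98 and 84) at 4-fold. With no filter 908 were higher. Under vehicle the 1052 calls (622 higher, 430 lower) became 1656 (970 and 686), 572 (326 and 246) and 112 (72 and 40), and 1621 with no filter, 990 of them higher. TMM factors, median-of-ratios factors, totals without the 10 most abundant transcripts, 1 CPM added, a mean of at least 1 CPM and both treatments of liver transcripts kept every total within 1.5 times. Removal of the length trend, chosen after seeing the data, left 468 higher and 655 lower under CORT, of which 403 and 545 were among the original calls. Of 132 named genes it ended the call of 15. Taking off the liver share turned 7 called genes, all liver-specific, to *Alb* -1.502, *Apoh* -0.8848, *Tat* -0.218, *Ttr* -0.1635, *Fgb* -0.1587, *Hpx* -0.0866 and *Ahsg* -0.0477, and the hepatocyte median to 0. It also ended the call of 13 other named genes, all liver-specific, among them *Mup20* and *Apoa1* at 0 and *Trf* at 0.449. The share of the liver level among transcripts at least 1000 times higher in liver was 0% in GRfl/fl and 0.275% in GR-mKO muscle under CORT. No paired analysis was possible because each group held 1 library, and no library could be left out for the same reason. Depth limits genes near the floor, where a change rests on few counts and on the amount added.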

Other observations

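Of 17 tested myokines, factors that muscle releases, 4 were higher in GR-mKO muscle under CORT and 0 lower, with a median of 0.10, where 4.40% of all tested genes were higher. *Ostn*, which encodes osteocrin (musclin), was at 15.7 and 4.33 CPM in GRfl/fl and at 18.5 and 19.9 CPM in GR-mKO muscle, a change of 2.07 (1.85 to 2.55), and the CORT-treated GRfl/fl library alone was low. The chemokine genes *Ccl2* and *Cxcl1* were at 0.259 against 3.48 CPM and 0.259 against 1.52 CPM, and *Il15* at 0.428 against 1.95 CPM, all within a few counts of the floor in GRfl/fl muscle. With the length trend taken off, *Cxcl1* changed by 0.93 and was not called. Of 15 tested antioxidant genes only *Gsta4*, a glutathione transferase gene, was called, at 6.41 against 15.7 CPM (1.23), or 0.76 with the trend taken off, and the metallothionein genes *Mt1* and *Mt2* changed by -0.78 (-0.93 to -0.65) and -0.57 (-0.71 to -0.44). Of 14 growth-arrest genes 2, *Cdkn1a* and *Sesn1*, were lower and 1, *Chac1*, was higher, beside 5.31% lower and 4.40% higher among all tested genes.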
